A study of Mus musculus with 4 samples.

Results

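The genes described here are 52 components of Wnt signalling, grouped by role into ligands, receptors and co-receptors, secreted antagonists, surface modulators of receptor level, the beta-catenin destruction complex with beta-catenin and Dishevelled, intracellular antagonists and scaffolds, and TCF/LEF transcription factors. They were chosen by name, with earlier results of these data known. Of the 52, 51 had a probe set annotated to that gene alone, out of 18193 genes with such a probe set in all. Where a gene had several probe sets, the one brightest on average across the 4 arrays was used. Of the 51 genes, 44 had at least 2 arrays above the 40th percentile of all values (5.97 on the log2 scale) and were tested, beside 13366 tested genes in all. Wnt3, Wnt10a, Sfrp2, Frzb, Wif1, Lgr5 and Rnf43 had fewer than 2 arrays above that level and were not tested, and Tcf7 was not analysed here.

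RNA came from 2 groups of mouse cells with 2 arrays each, a tumorigenic subline called glioma-initiating cell-like (GIC) and a nontumorigenic subline (non-GIC). Cells of both groups were derived from neural stem cells of the telencephalon of C57BL/6 p53-/- embryos at embryonic day 14.5, grown as floating spheres in serum-free medium with PDGF and bFGF. Both groups carry a vector for EGFP and the activated HRasL61, were selected in neomycin after co-transfection with pBabe-neo, and were sorted for GFP. Nothing in the labels tells whether a subline is 1 clone, or whether its pair of arrays stands for separate cultures. The p-values therefore rest on the spread between these arrays alone, and that spread may be technical. Any other difference between the sublines cannot be told apart from tumorigenicity.

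Wnt proteins are secreted lipid-modified ligands that bind Frizzled receptors. With the co-receptors Lrp5 or Lrp6, they recruit Dishevelled and stop a complex of Axin, Apc and Gsk3 from marking beta-catenin for degradation, so that beta-catenin reaches TCF/LEF factors on DNA. Other Wnt signals run through Frizzled, Ror or Ryk receptors to the planar polarity proteins without beta-catenin. In the embryonic telencephalon the pathway is known for its part in patterning and in the balance between progenitor division and neuronal differentiation.

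The stretches of DNA just upstream of the transcription start are shown for the changed members with an entry in the sequence table, Ankrd6 and Dact2, and for the antagonists Dkk2 and Dkk1, which had the highest differences among the tested genes of their role. Each is the 250 bases before the most upstream listed start, from RefSeq on GRCm38.p6, written 5′ to 3′ on the gene's strand. Capitals mark a match to CTTTGA or CTTTGT, the core letters bound by TCF/LEF factors, on either strand (the reverse complements are TCAAAG and ACAAAG). No window shown held TGANTCA, the core of the AP-1 site.
Ankrd6, chr4:32950827-32951076, minus strand: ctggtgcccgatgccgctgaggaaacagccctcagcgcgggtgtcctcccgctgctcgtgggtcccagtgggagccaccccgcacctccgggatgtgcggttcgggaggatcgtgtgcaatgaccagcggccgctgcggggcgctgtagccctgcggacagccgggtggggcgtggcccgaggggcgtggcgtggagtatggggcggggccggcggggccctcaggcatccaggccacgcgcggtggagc
Dact2, chr17:14203832-14204081, minus strand: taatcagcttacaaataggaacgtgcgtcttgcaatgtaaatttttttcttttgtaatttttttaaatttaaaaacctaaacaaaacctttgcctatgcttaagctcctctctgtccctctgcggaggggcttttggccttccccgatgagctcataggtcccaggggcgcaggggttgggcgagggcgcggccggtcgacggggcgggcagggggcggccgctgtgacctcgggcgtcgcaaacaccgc
Dkk2, chr3:132085042-132085291, plus strand: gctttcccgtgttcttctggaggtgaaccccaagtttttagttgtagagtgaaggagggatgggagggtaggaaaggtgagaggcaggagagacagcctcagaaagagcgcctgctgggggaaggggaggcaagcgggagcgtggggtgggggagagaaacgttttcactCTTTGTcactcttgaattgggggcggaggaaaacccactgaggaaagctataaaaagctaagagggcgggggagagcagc
Dkk1, chr19:30549497-30549746, minus strand: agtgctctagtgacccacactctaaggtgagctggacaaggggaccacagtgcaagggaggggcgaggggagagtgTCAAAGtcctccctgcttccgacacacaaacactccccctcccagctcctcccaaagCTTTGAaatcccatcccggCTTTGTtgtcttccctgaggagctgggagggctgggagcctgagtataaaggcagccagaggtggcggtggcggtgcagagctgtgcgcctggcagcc
The Dkk1 window had 3 TCF/LEF core matches, which began 174, 117 and 98 bases before the start, and the Dkk2 window had 1, which began 80 bases before it. The Ankrd6 and Dact2 windows had 0. An entry was found for 36 of the 52 members. The core was in 8 of these 36 windows (22.2%), against 27.8% of the 27025 windows of all genes, and TGANTCA was in 5.56% against 6.85%. The windows of the members had a median GC content of 70% against 52% over all windows. A match describes the letters of the window and is not a bound site.

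The deposited values are log2-scale signals with array medians between 6.58 and 6.63. Of the neural stem and progenitor markers with a probe set, 6 of 9 were above the filter level on all 4 arrays, among them Nes, Sox2 and Vim, and Olig2 and Prom1 were below it on every array. Of the mural and fibroblast markers 5 of 7 were above it on all arrays, and Lum and Rgs5 on none. The summed linear signal of that list was 25010 and 34015 in non-GIC and 37016 and 10229 in GIC, and its part in the results was not tested. Leukocyte and endothelial markers were above it on all arrays for 1 of 6 and 3 of 6. Nes and Fabp7 of the neural stem list and Map2 of the neuron list fell in GIC (log2 fold changes of -2.07, -1.51 and -2.29; limma adjusted p = 0.0459, 0.0258 and 0.019). Fabp7 was at 5.23 on both GIC arrays, under the filter level, and entered the test through its non-GIC arrays alone. Sox2 (-0.90), Pax6 (-0.44), Hes5 (-0.13), Msi1 (-0.04) and Vim (-0.01), the remaining tested genes of the neural stem list, did not pass. The other 4 tested neuron markers did not pass, with Tubb3 at 1.15, Rbfox3 at 0.02, Syt1 at 0.00 and Stmn2 at -0.18. The summed linear signal of the oligodendrocyte lineage list was 1449 and 1959 in non-GIC and 6446 and 4991 in GIC. Pdgfra, the PDGF receptor gene of that list, differed by 2.26 (adjusted p = 0.0504), and the other 4 tested genes, Cspg4, Sox10, Mbp and Mag, by -0.08 to 0.13. The part of these genes in the results was not tested either. In bulk RNA, fewer cells of a type and less RNA per cell cannot be told apart. Precision is limited by the number of arrays, 2 a group, and an exact permutation test of 1 gene cannot go below p = 0.33.

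Between the sublines 3 members changed. Ankrd6 and the receptor gene Fzd3 were higher in GIC, and Dact2 was lower. These are 3 of 44 tested members (6.82%), beside 1.92% of all tested genes (1.23% higher and 0.688% lower), by limma with p-values adjusted by Benjamini-Hochberg over all tested genes and a threshold of 0.05. The other 41 did not pass. Ankrd6 and Fzd3, and Dkk1 among those that did not pass, entered the test through their GIC arrays alone. The share of members called, and the counts and medians given below, are therefore descriptions and support nothing. With no filter on level, 2 of 51 members passed, Ankrd6 and Dact2, and 231 of 18193 genes in all. At an unadjusted p under 0.05 there were 11 members, and 17.9% of all tested genes. The GIC and non-GIC values did not overlap in 22 of the 44, which is 50% beside 50.4% of all genes, with 15 members higher and 7 lower in GIC (25.5% and 24.9% of all genes). In 11 members the gap between the groups was wider than the distance within either group, and in 19.5% of all genes. A difference of at least 2-fold was found in 10 members, 9 of them higher in GIC, against 6.63% of all genes for either direction and 4.37% for higher in GIC. The median log2 fold change, GIC minus non-GIC, was 0.14 over the tested members and -0.01 over all tested genes. By role the median was 0.57 for the receptors and co-receptors, 0.15 for the ligands and 0.12 for the TCF/LEF factors, and lay between -0.09 and 0.05 in the other 4 roles. The non-GIC arrays were at least 2-fold apart in 6 members (3.02% of all genes). Non-GIC replicate 1 was the lower in each of these 6, and in 309 of the 403 such genes among all tested genes. The GIC arrays were at least 2-fold apart in 3 members (3.16% of all genes).

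**Figure D1:**
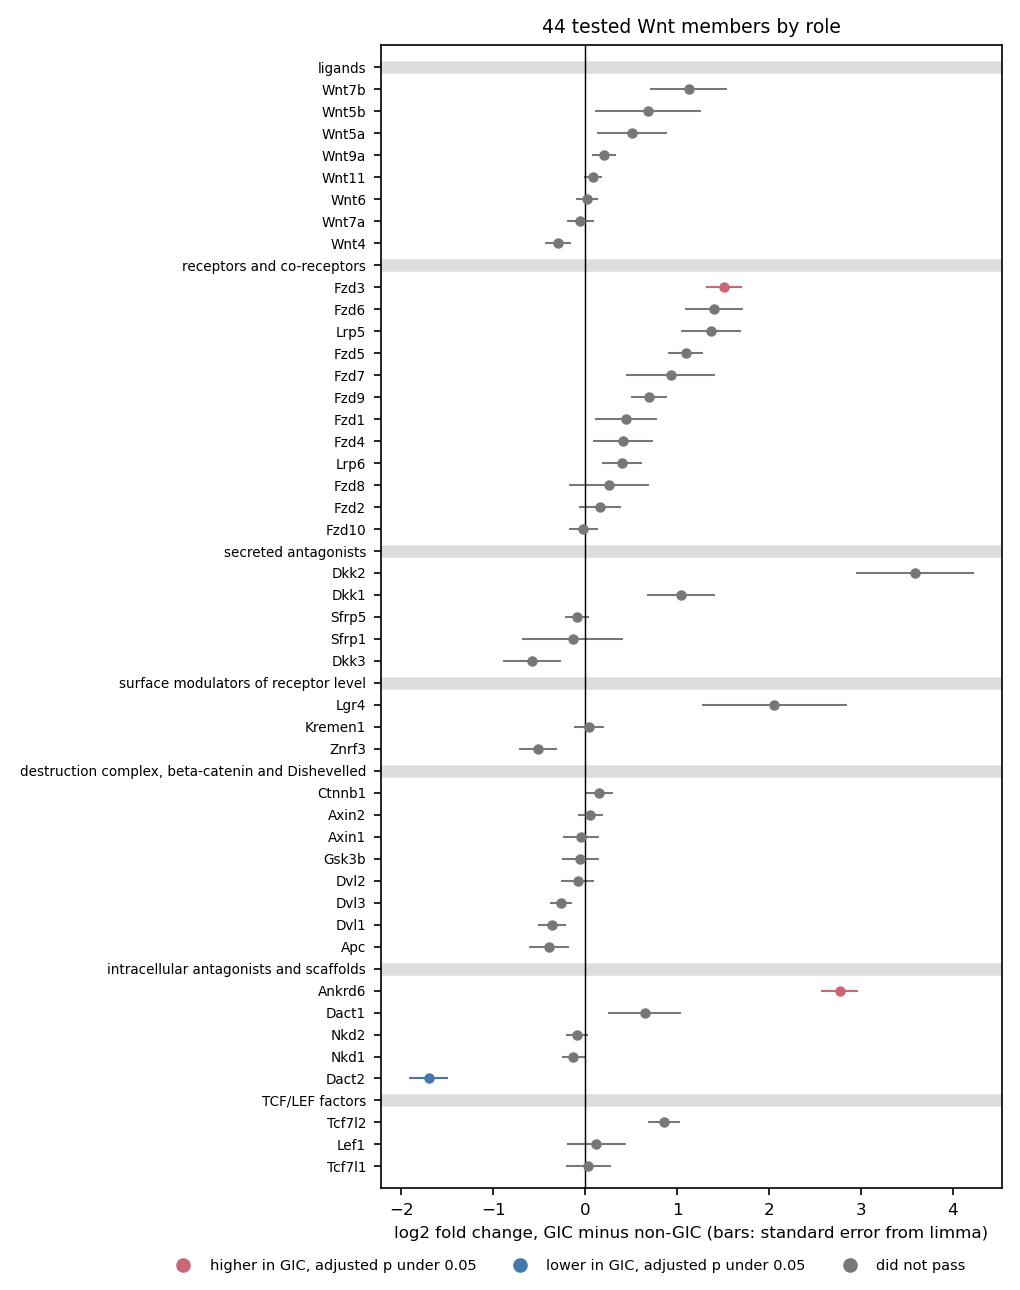
Log2 fold change, GIC minus non-GIC, of the 44 tested Wnt members, grouped by role, with points for the estimate from 2 arrays a group and bars for limma's standard error. Ankrd6 (2.77) and Fzd3 (1.51) are coloured as higher, Dact2 (-1.70) as lower, and the point farthest to the right is Dkk2 (3.59), which did not pass and has a wide bar.

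Among the ligands no member changed, and Wnt7b had the largest difference. Limma called 0 of 8 tested ligands, and 1 had an unadjusted p under 0.05, beside 17.9% of all tested genes. Wnt7b, a ligand of the forebrain known for its role in building brain blood vessels, had a log2 signal of 8.38 and 7.84 in non-GIC and of 8.70 and 9.78 in GIC. The groups did not overlap, but GIC replicate 2 was well above GIC replicate 1. The log2 fold change was 1.13 (SE 0.42, limma adjusted p = 0.273), or 2.18-fold. Without GIC replicate 2 it was 0.58 on the log2 scale, and without GIC replicate 1 it was 1.67. The other Wnt7b probe set had 7.04 and 6.69 in non-GIC and 8.03 and 9.23 in GIC, a difference of 1.77, with the same order of arrays.

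Wnt5a and Wnt5b, ligands best known for signalling without beta-catenin, separated the non-GIC arrays more than the groups. Wnt5a was at 8.24 on non-GIC replicate 1 and 9.28 on replicate 2, while GIC had 9.13 and 9.41. Wnt5b was at 5.75 and 7.42 in non-GIC and at 7.50 and 7.04 in GIC. In both genes non-GIC replicate 1 was the low array and the other 3 lay together. The log2 fold changes were 0.51 (adjusted p = 0.555) and 0.68 (adjusted p = 0.603). Wnt4, a ligand known from kidney and gonad development, was at 7.94 and 8.07 in non-GIC and at 7.71 and 7.70 in GIC, with its groups apart (-0.30, adjusted p = 0.358), and its other probe set differed by -0.48. Wnt6, Wnt7a, Wnt9a and Wnt11 differed by -0.05 to 0.21. Of the untested ligands, Wnt3 lay between 3.53 and 3.75 on all arrays, and Wnt10a was above the filter level on non-GIC replicate 1 alone (6.64, against 5.59 to 5.72 on the other 3).

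Most receptor genes had the higher mean in GIC, and 1 of them, Fzd3, rose. All 12 receptor and co-receptor genes were tested and 11 had a GIC mean above that of non-GIC, with Fzd10 at -0.02 the exception. Among all tested genes 6478 of 13366 had the higher mean in GIC. The other 11 genes of the role did not pass the threshold. The groups were apart in 7 of the 12 (58.3%), beside 50.4% of all tested genes in either direction. Each of the 7 had GIC higher, where 25.5% of all tested genes had GIC higher with no overlap. At an unadjusted p under 0.05 there were 5 of the 12, Fzd3, Fzd5, Fzd6, Fzd9 and Lrp5, and 17.9% of all tested genes. Fzd3 entered the test through its GIC arrays alone, so these counts are descriptions and support nothing.

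Fzd3, a Frizzled known for guiding axon tracts and for neural tube closure, had a log2 signal of 5.61 and 5.45 in non-GIC, under the filter level, and of 7.29 and 6.79 in GIC. The gap of 1.18 between the groups was wider than the distance between arrays of a group. It amounted to a difference of 1.51 on the log2 scale (SE 0.20, limma adjusted p = 0.0459), with no fold given because the non-GIC signal was not shown to be above background. The other 5 Fzd3 probe sets were also higher in GIC by their means, by 1.10, 0.99, 0.37, 0.14 and 0.04, and those with the last 2 values were under the filter level on every array. Fzd3 was too low to be tested when its probe sets were averaged or under a stricter level filter. The call was lost without a level filter (limma adjusted p = 0.0504) and without a trend in the spread (0.0639). It was also lost without non-GIC replicate 1 (0.184), non-GIC replicate 2 (0.178) or GIC replicate 1 (0.105). It passed in 5 of 11 alternatives, with adjusted p from 0.0398 to 0.184.

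Fzd6, a Frizzled of the planar polarity branch known for hair patterning, was at 9.89 and 10.54 in non-GIC and at 11.90 and 11.33 in GIC. Its log2 fold change was 1.40 (SE 0.32, adjusted p = 0.134), or 2.64-fold, and a second probe set gave 1.34. The last Fzd6 probe set, at 6.20 to 6.30 on all arrays, gave 0.02, and the mean of the 3 gave 0.92. Fzd5, a Frizzled needed in the developing eye and yolk sac, was at 8.45 on both non-GIC arrays and at 9.36 and 9.73 in GIC. Its log2 fold change was 1.09 (SE 0.19, adjusted p = 0.0813), or 2.13-fold, with 0.66 at the other probe set. In both receptors the groups were apart by more than either within-group distance, and neither passed.

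Lrp5, a co-receptor of the beta-catenin branch known for its role in bone mass and retinal vessels, had 6.05 and 6.74 in non-GIC and 8.09 and 7.44 in GIC. The log2 fold change was 1.37 (SE 0.33, adjusted p = 0.142), or 2.58-fold. That fold is not a firm measure, since Lrp5 on non-GIC replicate 1 (6.05) was only just above the filter level and not shown to be above background. Its relative Lrp6 had 9.00 and 9.14 in non-GIC and 9.69 and 9.25 in GIC, a smaller difference of 0.40 (adjusted p = 0.412). Fzd9 differed by 0.69 (adjusted p = 0.188) and Fzd7 by 0.93 (adjusted p = 0.407). For Fzd7 the groups were only 0.01 apart, since non-GIC replicate 2 (10.02) matched GIC replicate 2 (10.02) and non-GIC replicate 1 was at 8.69. Fzd1, Fzd2, Fzd4 and Fzd8 had overlapping groups and differences from 0.16 to 0.44.

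The pattern of the receptors was uneven over the arrays. GIC replicate 1 was the highest of the 4 arrays in 11 of the 12 receptor genes (91.7%), against 29.4% of all tested genes, and non-GIC replicate 1 was the lowest in 7 (58.3%), against 27.1%. Averaged over the 12 genes, the deviation from a gene's mean was 0.61 for GIC replicate 1, 0.11 for GIC replicate 2, -0.54 for non-GIC replicate 1 and -0.19 for non-GIC replicate 2. The median log2 fold change of the receptors was 0.31 without GIC replicate 1 and 0.91 without GIC replicate 2, and it was 0.33 with non-GIC replicate 1 left out and 0.70 with non-GIC replicate 2 left out. The number with a difference above 0 was 8, 12, 11 and 11 in these fits, against 6672, 6556, 6824 and 6309 of all 13366 tested genes. The median over all genes stayed between -0.02 and 0.01. These are descriptions of 4 arrays with no test of the list.

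**Figure D2:**
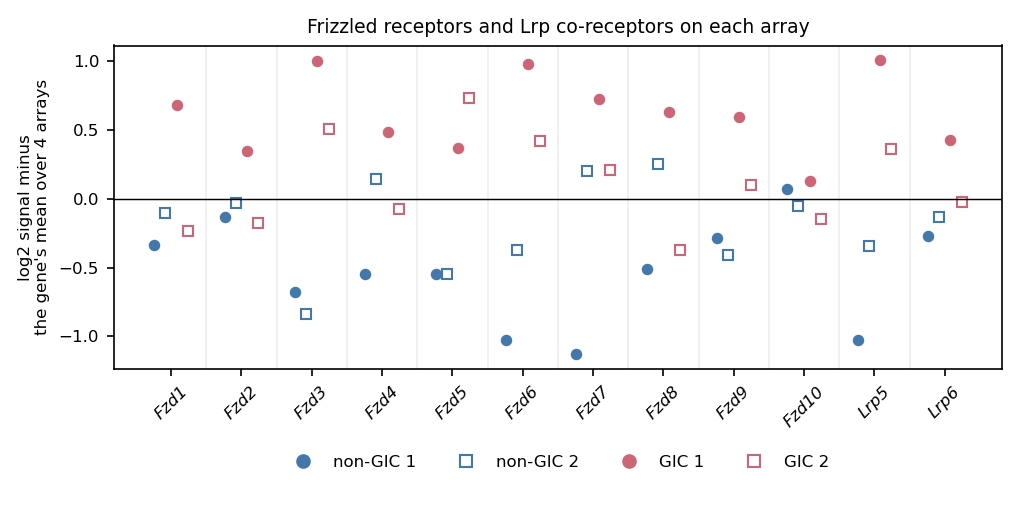
Log2 signal of each Frizzled and Lrp gene on each of the 4 arrays, minus that gene's mean over the arrays, with filled circles for replicate 1 and open squares for replicate 2 of non-GIC (blue) and GIC (red). The filled red circle, GIC replicate 1, is the top point in every gene but Fzd5, and the gene with the widest gap between blue and red points is Fzd3 (1.18).

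Among the secreted antagonists no member passed, and Dkk2 had the largest difference of all members. Limma called 0 of 5 tested genes, with 2 at an unadjusted p under 0.05, Dkk1 and Dkk2, beside 17.9% of all tested genes. Dkk1 entered the test through its GIC arrays alone. Dkk2, which binds Lrp co-receptors and can block or support signalling depending on the cell, had 6.04 and 7.83 in non-GIC and 10.17 and 10.88 in GIC. The GIC arrays were 2.34 above the higher non-GIC array, and the non-GIC arrays themselves were 1.78 apart. On the log2 scale the groups differed by 3.59 (SE 0.64, adjusted p = 0.0854), or 12-fold. Leaving out non-GIC replicate 1 gave 6.48-fold, and leaving out non-GIC replicate 2 gave 22.3-fold. The 22.3-fold has non-GIC replicate 1 (6.04) as its only non-GIC array, and the 12-fold includes it. That signal was only just above the filter level and was not shown to be above background, so neither fold is a firm measure. Only 1 probe set of Dkk2 was named. Over 13 alternatives none passed, with adjusted p from 0.0652 to 0.185.

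Dkk1, the prototype Lrp-binding inhibitor and itself a target of the pathway, had 5.62 and 5.89 in non-GIC, under the filter level, and 6.26 and 7.33 in GIC. The log2 fold change was 1.04 (SE 0.37, adjusted p = 0.259), and moved from 0.51 without GIC replicate 2 to 1.57 without GIC replicate 1. Dkk3, a divergent relative that does not act like the other Dkk proteins on Lrp, was at 6.97 and 7.78 in non-GIC and at 6.98 and 6.61 in GIC (-0.58, adjusted p = 0.418). Sfrp1, a soluble Frizzled-like protein that binds Wnt ligands, varied more within each subline than between them, with 7.74 and 9.17 in non-GIC and 7.93 and 8.70 in GIC (-0.14, adjusted p = 0.921). Sfrp5 differed by -0.09. Frzb, another soluble Frizzled-like protein, had 5.00 and 4.60 in non-GIC and 6.61 and 5.89 in GIC, with 1 array above the filter level. It was not tested, and in the fit without a level filter its adjusted p was 0.114. Sfrp2 (4.11 to 4.30) and Wif1 (3.31 to 3.67) were low on all arrays.

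The surface genes that set receptor level showed no changed member. Limma called 0 of 3 tested genes and 0 had an unadjusted p under 0.05. Lgr4, a receptor for R-spondins that protects Frizzleds from removal, had 9.13 and 11.38 in non-GIC and 12.73 and 11.90 in GIC. The groups did not overlap, but the non-GIC arrays were 2.24 apart, further than the means of the groups. The log2 fold change was 2.06 (SE 0.79, adjusted p = 0.282), or 4.17-fold. A second Lgr4 probe set, under the filter level on every array, gave 0.04, and the mean of both gave 1.05. The single probe set used came to 1.92-fold with non-GIC replicate 1 left out and to 9.08-fold with non-GIC replicate 2 left out. Znrf3, a ubiquitin ligase that removes Frizzleds from the surface and the target that R-spondins block, was at 9.03 and 9.06 in non-GIC and at 8.31 and 8.76 in GIC. Its value was -0.51 (adjusted p = 0.303), with -0.30 at a second probe set. Kremen1, a receptor for Dkk proteins, differed by 0.05. Lgr5 and the ligase Rnf43 lay under the filter level on all arrays (5.34 to 5.67 and 4.56 to 5.13).

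The destruction complex, beta-catenin and the Dishevelled genes showed no changed member. Limma called 0 of 8, and 0 had an unadjusted p under 0.05. All differences lay between -0.39 and 0.15. Ctnnb1, which encodes beta-catenin, had 13.75 and 13.91 in non-GIC and 14.13 and 13.84 in GIC, a log2 fold change of 0.15 (SE 0.15, adjusted p = 0.656). Axin2, a scaffold of the complex and a widely used target gene of beta-catenin, had 7.52 and 7.63 in non-GIC and 7.70 and 7.56 in GIC (0.06, SE 0.14, adjusted p = 0.871). The values of both overlapped between groups. A p above the threshold does not show that they were equal.

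Apc, the scaffold that holds beta-catenin in the complex, had 10.20 and 10.10 in non-GIC and 9.98 and 9.53 in GIC (-0.39, SE 0.21, adjusted p = 0.424), and all 4 of its probe sets were lower in GIC by their means, by as much as -0.75. Dvl1, a Dishevelled that relays the signal from Frizzled, had 10.49 and 10.56 in non-GIC and 10.16 and 10.17 in GIC (-0.36, SE 0.16, adjusted p = 0.329). Its second probe set gave -0.39. Dvl3 had -0.26 and Dvl2 -0.08, and Dvl1 and Dvl3 had their groups apart. Axin1 and the kinase gene Gsk3b differed by -0.05 each, with overlapping groups.

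Ankrd6 and Dact2, which changed, are both intracellular modulators that act at Dishevelled or Axin. Of the 5 genes in this role 1 was higher, 1 was lower and 3 did not pass, 40% called beside 1.92% of all tested genes. Ankrd6 entered the test through its GIC arrays alone, so that share is a description and supports nothing. Ankrd6 encodes Diversin, an ankyrin repeat protein known to favour beta-catenin degradation while serving the planar polarity branch. Its log2 signal was 5.11 and 5.57 in non-GIC, under the filter level, and 7.97 and 8.25 in GIC. The gap of 2.40 between the groups was wider than the distance within either, 0.45 and 0.28. For Ankrd6 the log2 fold change was 2.77 (SE 0.20, limma adjusted p = 0.015). No fold is given, since the non-GIC signal was not shown to be above background. A second probe set gave 2.95 and the last, with higher non-GIC signals of 6.35 and 6.01, gave 0.79, and the mean of the 3 gave 2.17. Ankrd6 passed in 11 of 13 alternatives, and the call was lost without non-GIC replicate 1 (adjusted p = 0.07) and without GIC replicate 1 (0.0505).

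Dact2, a Dishevelled-binding protein of the Dapper family, had 9.37 and 9.17 in non-GIC and 7.35 and 7.79 in GIC. All arrays were above the filter level and the groups were 1.38 apart. Its log2 fold change was -1.70 (SE 0.21, limma adjusted p = 0.0428), or 3.26-fold lower. The probe sets disagreed in size: a second gave -0.77 and the last, at 7.24 to 7.34 on all arrays, gave 0.05. With the mean of the 3 the value was -0.81 and the call was lost (adjusted p = 0.0692). The call was also lost without any 1 array (adjusted p 0.0536 to 0.2), and the range over 13 alternatives was 0.0403 to 0.2. Its relative Dact1 had 8.31 and 7.74 in non-GIC and 9.17 and 8.18 in GIC, with overlapping groups (0.65, adjusted p = 0.474). Nkd1 and Nkd2, which bind Dishevelled and dampen the signal, differed by -0.13 and -0.09.

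Of the TCF/LEF factors, limma called 0 of 3 tested genes, with Tcf7l2 at an unadjusted p under 0.05. Tcf7l2, a DNA-binding partner of beta-catenin, had 8.34 and 8.19 in non-GIC and 9.25 and 8.99 in GIC. The groups were 0.66 apart, and the log2 fold change was 0.85 (SE 0.17, adjusted p = 0.11), or 1.81-fold. All 4 of its probe sets were higher in GIC by their means, from 0.08 to 1.10. Lef1 had 8.92 and 8.14 in non-GIC and 8.86 and 8.44 in GIC (0.12, SE 0.32, adjusted p = 0.881), and Tcf7l1, which often acts as a repressor, differed by 0.04.

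**Figure D3:**
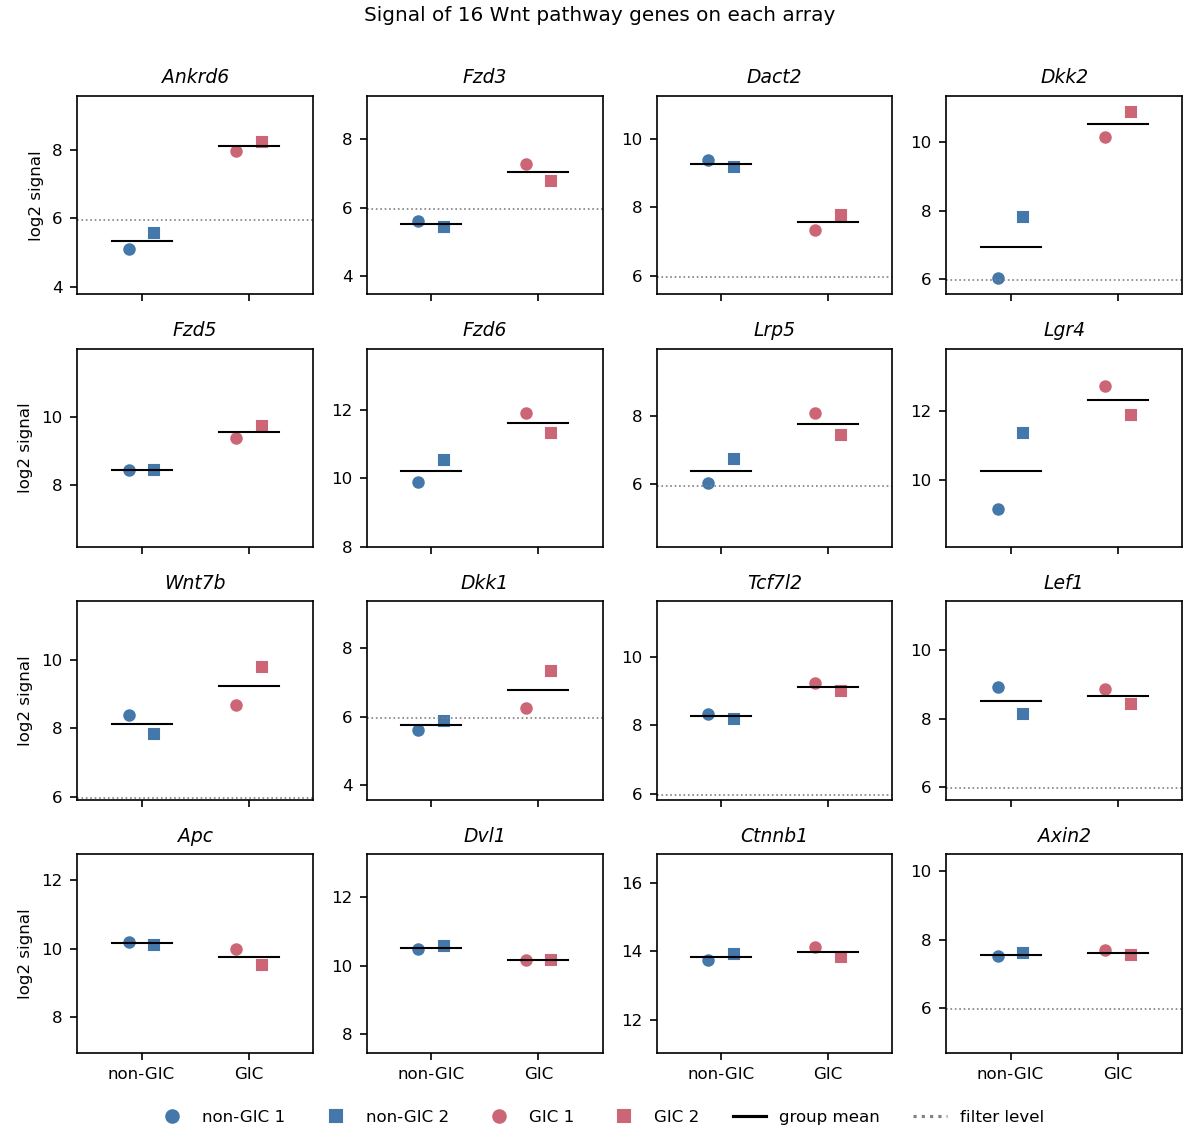
Log2 signal of 16 Wnt genes on each array, with circles for replicate 1, squares for replicate 2, a line for each group mean (n = 2) and a dotted line at the filter level of 5.97 where it falls in view. Every panel spans the same number of log2 units. Ankrd6, Fzd3 and Dact2 have tight, separate groups, Dkk2 and Lgr4 have separate groups with a wide non-GIC pair, and Ctnnb1 and Axin2 show nearly level means.

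Where several probe sets of a member had at least 2 arrays above the filter level, they mostly gave differences of the same sign. This held for all such probe sets in 24 of 29 members, and in 5 at least 1 had the other sign. The members had 120 probe sets in all.

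**Figure D4:**
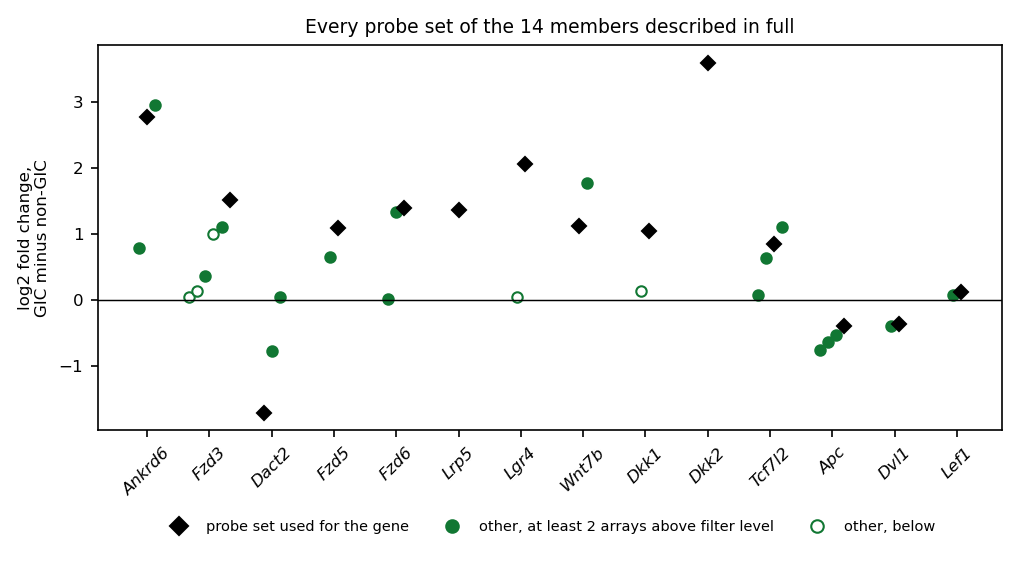
Log2 fold change, GIC minus non-GIC, at every probe set of the 14 members described with full statistics, with a diamond for the probe set used, filled circles for others with at least 2 arrays above the filter level and open circles for those below. Every member shown but Dact2 has all of its probe sets on one side of 0, though Lrp5 and Dkk2 have only 1 each. Dact2 has 1 of 3 at 0.05.

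A further 100 genes of the pathway were read from the same fit, of which 79 were tested. Of these, 3 were higher in GIC, 1 was lower and 75 did not pass, 5.06% called beside 1.92% of all genes, with a median log2 fold change of 0.04. The list was chosen with earlier results of these data known. Ror2 and Prickle1 each had 1 non-GIC array under the filter level and needed their GIC arrays to enter the test. The share called is therefore a description and supports nothing. Ror2, a receptor kinase for Wnt5a, had 6.06 and 5.46 in non-GIC and 8.05 and 8.46 in GIC (2.49, SE 0.26, limma adjusted p = 0.032). Its second probe set, under the filter level, gave 0.05, and the mean of both gave 1.27 (adjusted p = 0.0517). Prickle1, a core planar polarity protein, had 6.06 and 5.65 in non-GIC and 8.01 and 7.52 in GIC (1.91, SE 0.23, adjusted p = 0.0395). No fold is given for Ror2 or Prickle1, since their non-GIC signal was not shown to be above background. Of the other planar polarity genes tested, 12 did not pass, and Vangl2, the transmembrane partner of Prickle proteins, differed by -0.09.

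Ccn5, a matricellular protein also called Wisp2 for its link to Wnt signalling, was the only one of 20 tested target genes to pass, with 6.57 and 7.89 in non-GIC and 12.19 and 11.45 in GIC (4.60, SE 0.52, adjusted p = 0.0346), or 24.2-fold. It was 15.3-fold with non-GIC replicate 1 left out and 38.2-fold with non-GIC replicate 2 left out. Tle4, a Groucho corepressor that binds TCF/LEF factors, had 8.65 and 8.52 in non-GIC and 7.44 and 7.54 in GIC (-1.10, SE 0.15, adjusted p = 0.0481), or 2.14-fold lower. It passed in 2 of 13 alternatives. A second Tle4 probe set gave -0.92. None of these 4 genes passed when any 1 array was left out. Of the target genes that did not pass, 4 well-known ones are given here, outside the rule for named genes and with their values seen: the cell cycle gene Ccnd1 had -0.70 (adjusted p = 0.273), Myc -0.44 (0.633), the adhesion receptor Cd44 0.44 (0.374) and Sp5 0.15 (0.513). The differences of the 20 target genes were above 0 in 11 and below 0 in 9.

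**Figure D5:**
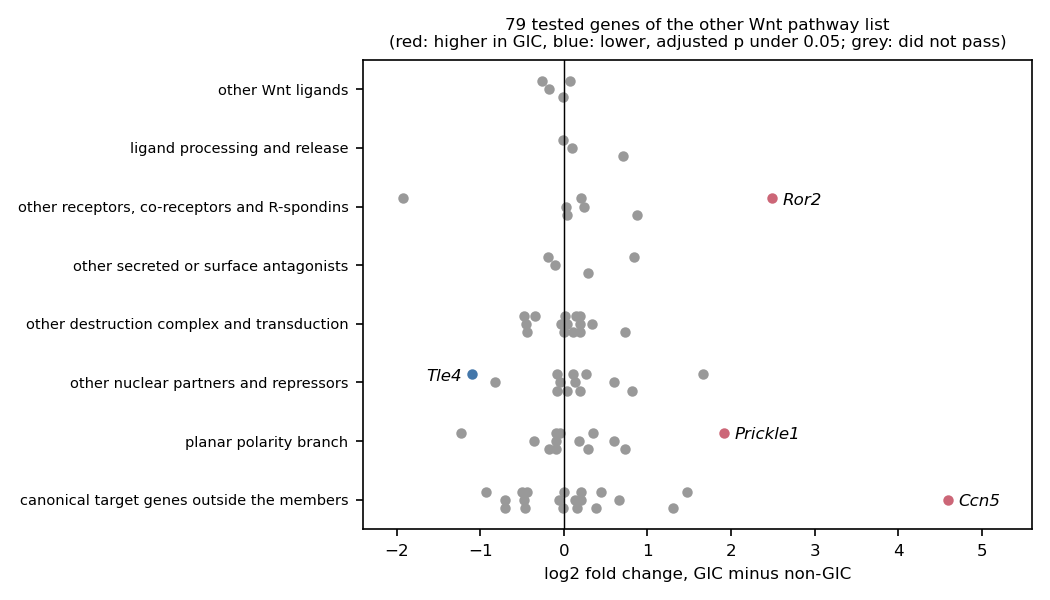
Log2 fold change, GIC minus non-GIC, of the 79 tested genes of the other Wnt pathway list, 1 point a gene, in rows by role with a small vertical offset for legibility. Ror2 (2.49), Prickle1 (1.91) and Ccn5 (4.60) are coloured as higher and Tle4 (-1.10) as lower; most other genes lie within 1 log2 unit of 0.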

How the data were processed

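From each sample 5 µg of total RNA was made into biotin-labelled cRNA and hybridised to an oligonucleotide array, per the labels' protocols. The deposited table holds a log2 signal for each of 45101 probe sets on 4 arrays (range 2.75 to 15.12). The base of 2 was inferred from the range. How the authors corrected background, summarised probes and normalized arrays is not given in the sources used. No 2 arrays held identical values.

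Probe sets were named by the platform annotation, updated by Entrez identifier to GRCm38.p6 symbols, for 34945 probe sets with 1 gene; 932 with several, 9211 unnamed here and 64 controls were left out. Genes entered the fit with 2 or more arrays over 5.97. Groups were compared with limma 3.58.1 in R 4.3.3 (lmFit with a group term alone; eBayes with the spread allowed to follow intensity; two-sided; Benjamini-Hochberg over 13366 genes). The fit had 2 residual degrees of freedom and 2.72 prior ones. Differences are GIC minus non-GIC. Figures used matplotlib 3.10.9.

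Full statistics are given for members past the threshold, for members of at least 2-fold whose groups do not overlap, and otherwise for the 2 largest differences of a role, and for pathway genes past the threshold. All other members are given briefly; Vangl2, Ccnd1, Myc, Cd44 and Sp5 fall outside this rule and were named after their values were seen. The members and lists were chosen with earlier results of these data known. The procedure was run on 20 simulations with 200 of 13366 genes changed. It recovered 11.5% of changes of 1, 79.5% of 2, 91.7% of 3 and 97.8% of 4 on the log2 scale. Among the calls in simulated data, 5.04% were false. These shares do not measure error or power on the real arrays. There, replicate 1 minus 2 correlated at r = -0.32 between the groups across genes. The effect of that correlation on the shares was not tested. Marker lists for neurons, astrocytes, oligodendrocytes and ependyma were also read; 4 of 7, 4 of 6, 5 of 6 and 2 of 6 of their genes with a probe set were above the filter level on all arrays.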

Additional observations from a re-analysis of the deposited data

How the results depend on the processing

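Quantile normalization, median centring, other level filters, omitting probe sets that can bind several transcripts and robust eBayes left 198 to 261 changed genes, 2 or 3 changed members and 3 or 4 changed pathway genes, of 257, 3 and 4. The 4 pathway genes with quantile normalization included Lgr6 in place of Tle4. Tle4 also lost its call with no level filter, with the stricter level filter and with robust eBayes. Averaging all probe sets of a gene gave 1 member and 2 pathway genes; without an intensity trend there were 2 members and 2 pathway genes. Leaving out 1 array gave 12 to 188 changed genes, 0 to 2 members and 0 pathway genes (limma); a group then has 1 array, assumed to vary like the other group. Leaving out non-GIC replicate 1 gave 12 genes and 0 members, non-GIC replicate 2 gave 56 and 1, GIC replicate 1 gave 77 and 0, and GIC replicate 2 gave 188 and 2. The value of Lef1 ran from -0.27 to 0.51 over these fits, so its sign turned without non-GIC replicate 2 or GIC replicate 1. With the replicate number as a block there were 29 changed genes, 1 member (Ankrd6) and 0 pathway genes; adjusted p was 0.0993 for Fzd3 and 0.166 for Dact2. The numbers are not stated to pair samples, and replicate 1 minus 2 correlated at r = -0.32 between the groups across genes, which are not independent. A crossed block, chosen after seeing the data, gave 685 genes, 6 members and 8 pathway genes. Of 229 values of the 18 genes described in full, 185 kept direction and side of the threshold, 42 lost the call, 0 gained one and 2 turned sign, both of Lef1. Only the 3 members and 4 pathway genes called in the main fit could lose a call, and all 42 losses fell on them. The other genes counted as kept by staying above the threshold in the same direction. The share of 229 therefore does not measure how stable the calls were.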

Other observations

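The genes in this section were picked after their values were seen. Neither Lgr4 nor Lgr6, both receptors for R-spondins, passed with the values as deposited and the brightest probe set. Lgr6, a relative of Lgr4, had a log2 signal of 8.77 and 9.37 in non-GIC and 7.36 and 6.94 in GIC, a difference of -1.92 (SE 0.27, adjusted p = 0.0548 by limma), and its second probe set gave -1.51. Lgr4 had 2.06 (adjusted p = 0.282), and Lgr5 lay under the filter level. Lgr6 passed the threshold with quantile normalization and when its probe sets were averaged. The difference between Lgr4 and Lgr6 was not tested.

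Tle2, a relative of the Tle4 corepressor, had 7.66 and 8.20 in non-GIC and 9.97 and 9.20 in GIC, a value of 1.66 (adjusted p = 0.111). The other relatives tested had 0.82 (Tle1), -0.04 (Tle3) and 0.60 (Tle5), and did not pass. Prickle2, a relative of Prickle1, had 7.39 and 8.24 in non-GIC and 6.88 and 6.30 in GIC, a value of -1.23 (adjusted p = 0.19). Ctnnbip1, which blocks beta-catenin from TCF factors, had -0.82 (adjusted p = 0.11), and Apcdd1, a surface inhibitor, had 0.84 (adjusted p = 0.169). None of these passed.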
